A study of Oryctolagus cuniculus with 16 samples.

Results

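The 10 genes described here mark the cells that line blood vessels. They are *PECAM1*, *CDH5*, *TEK*, *TIE1*, *ANGPT2*, *EMCN*, *ENG*, *STAB2*, *CLEC4G* and *PLVAP*, a list of names, drawn up with earlier results of these data known, out of the 20255 genes listed for the rabbit femoral head. All 10 were listed as mRNAs. A filter on low counts left 15305 genes to be tested, all 10 among them, *CLEC4G* through the counts of its control libraries. Total RNA of the femoral head was sequenced from a Perthes group of 5 rabbits and a control group of 3, to find the transcripts that differ when the blood supply of the growing hip is interrupted. In the Perthes group, rabbits of 8 weeks of age had the hip opened, the femoral neck tied with a non-absorbable suture and the ligamentum teres cut. The study describes the rabbits it bought as wild type, and the samples of the control group carry that label. No sham operation is described for the controls, and no time of harvest is given, so the effects of surgery and of the interrupted blood supply cannot be told apart. Each library is 1 rabbit, and the p-values measure the spread between these 8 rabbits.

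Endothelial cells are held together by junction proteins such as PECAM1 and VE-cadherin (CDH5), and they sense the angiopoietins through the Tie receptors TEK and TIE1. In bone marrow, the arteries drain into sinusoids, wide and leaky vessels whose lining takes up waste molecules through scavenger receptors and through whose wall new blood cells leave the marrow. STAB2 is known from sinusoid linings, and CLEC4G from those of liver and lymph node. EMCN and PLVAP are known from veins, capillaries and sinusoids, and ENG from endothelium in general. The blood supply of the femoral head runs along the femoral neck and, in part, through the ligamentum teres.

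Values are CPM, the counts of a gene relative to its library total, after scaling by the TMM method. The libraries held 26757077 to 29461483 counts, and 1 count was worth 0.0333 to 0.0374 CPM. In a principal component analysis the first component held 56.1% of the variance, with the 5 Perthes rabbits at -93.7 to 5.21 and the 3 controls at 49.0 to 97.0. Perthes rabbit 2 lay nearest to the controls on that component. On the second (13.1%), Perthes rabbit 4 lay far from the rest, at -78.4 against -7.51 to 27.5 in the remaining 7 rabbits. Values without rabbit 2 or 4 are given below where leaving it out moved a call or, for a called gene, the fold by over 1.5 times. A bulk measurement cannot tell fewer cells of a type from less RNA per cell.

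Of the 10 marker genes, 1 fell in the Perthes rabbits, *CLEC4G*, and 0 rose (edgeR quasi-likelihood test, Benjamini-Hochberg adjusted p under 0.05 over 15305 genes). Over all genes tested, 8.86% fell and 6.21% rose by the same rule, 15.1% in all, and in 25.2% the groups did not overlap. At an unadjusted p under 0.05 the count was 1 lower and 1 higher, the latter being *ENG*. DESeq2 called 1 lower and 1 higher, the same 2 genes, against 23.8% of all genes called by that tool. The fitted changes of the 10 genes had a median log2 fold change of 0.01, and that of all genes tested was 0.02. Of the fitted changes 5 lay above 0 and 5 below. The other 8 genes had fitted log2 fold changes between -0.43 and 0.58 beside the 2 sinusoid genes, *STAB2* and *CLEC4G*, which had the lowest, -1.22 and -4.37, and the widest intervals.

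**Figure D1:**
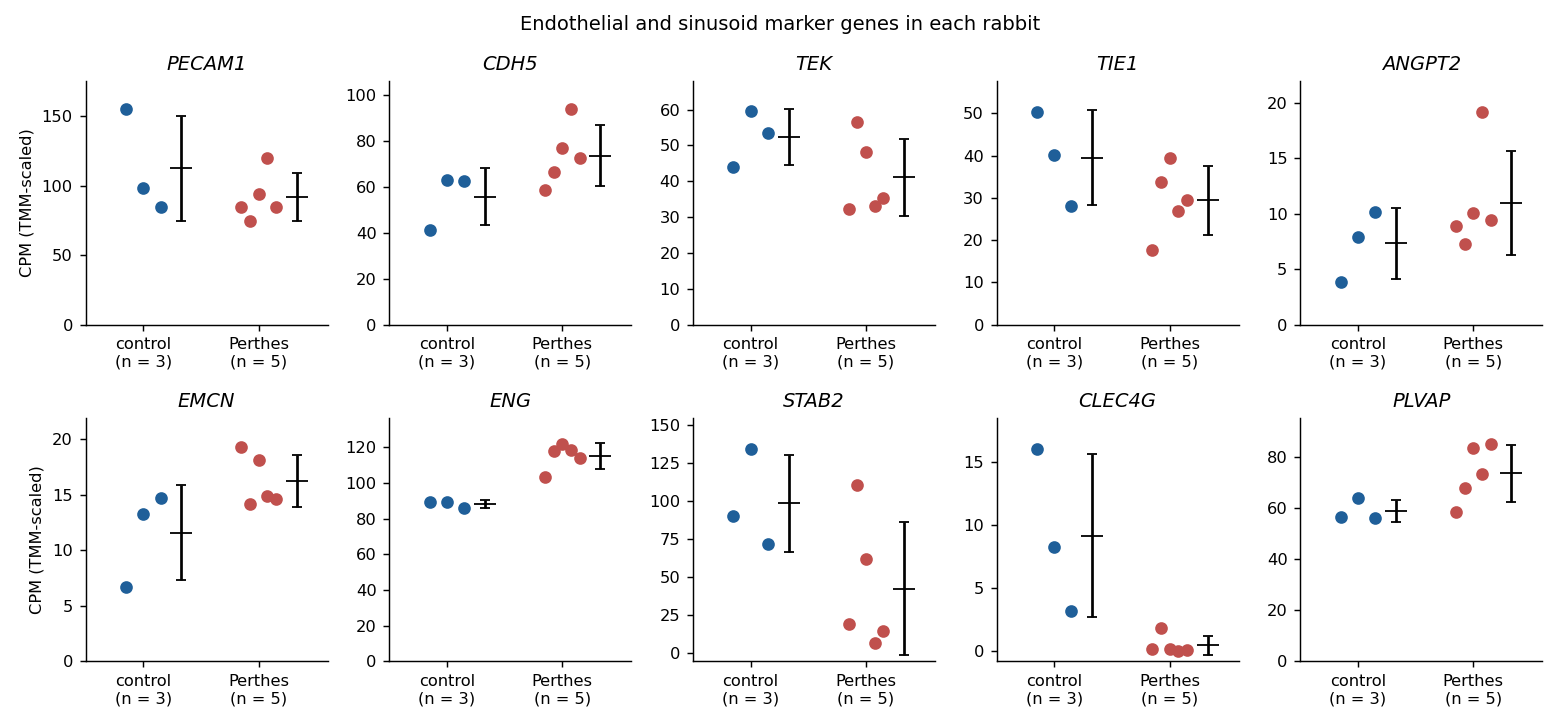
Level of each of the 10 marker genes in each rabbit, as TMM-scaled CPM on linear axes, with blue points for the 3 control rabbits and red points for the 5 Perthes rabbits. The black bars give mean ± SD. The groups overlap in 8 panels, lie apart with Perthes above in *ENG* and lie apart with Perthes below in *CLEC4G*.

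**Figure D2:**
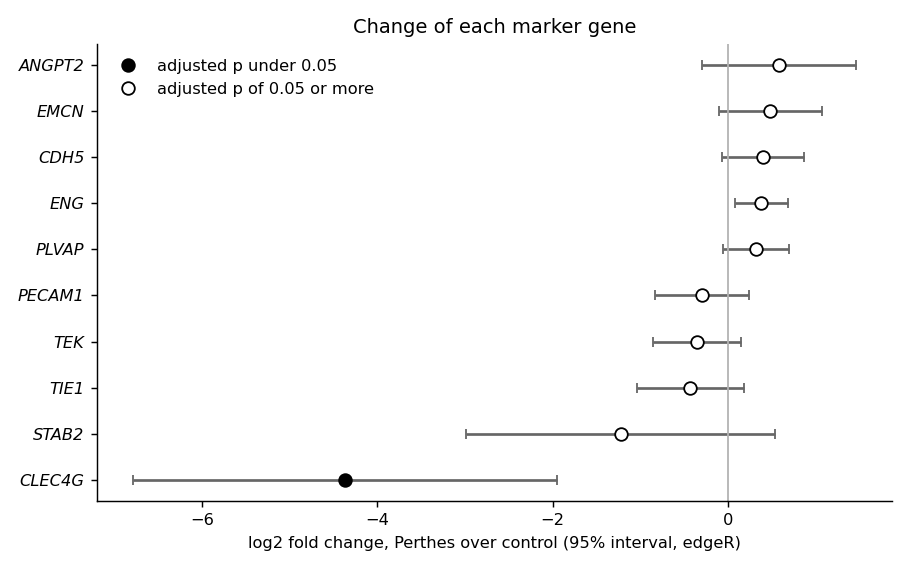
Fitted log2 fold change of each marker gene, Perthes over control, with its 95% interval from edgeR. The filled point, *CLEC4G* at -4.37, is the 1 gene with an adjusted p under 0.05, and the interval of *ENG*, from 0.08 to 0.69, is the other that does not reach 0.

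The junction genes came first. *PECAM1* (gene 100357605), an adhesion molecule at endothelial contacts that platelets and white blood cells also carry, was at 84.7, 74.7, 94.2, 120 and 84.9 CPM in Perthes rabbits 1 to 5 and at 155, 98.1 and 84.3 CPM in controls 1 to 3. The groups overlapped, and control 1 stood highest of all 8. The means were 91.7 ± 17.3 CPM (SD, n = 5) and 113 ± 37.6 CPM (SD, n = 3). In the fit its log2 fold change was -0.30 (SE 0.24, adjusted p = 0.421 in edgeR). Without control 1 it was 0.01.

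*CDH5* (gene 100341002), which encodes VE-cadherin, the adherens junction protein of endothelium, was at 58.6, 66.5, 77.0, 94.0 and 72.6 CPM in Perthes rabbits 1 to 5 and at 41.4, 63.2 and 62.8 CPM in controls 1 to 3. Rabbits 2 to 5 lay above all 3 controls, and rabbit 1 lay among them. The means were 73.8 ± 13.3 CPM (SD, n = 5) and 55.8 ± 12.5 CPM (SD, n = 3). With these, the fitted log2 fold change was 0.40 (SE 0.21, adjusted p = 0.219 in edgeR), with a 95% interval from -0.07 to 0.88.

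The angiopoietin receptors were next. *TEK* (gene 100356675), the receptor that angiopoietin 1 activates to stabilise vessels, was at 32.2, 56.6, 48.2, 33.2 and 35.4 CPM in Perthes rabbits 1 to 5 and at 43.9, 59.7 and 53.5 CPM in controls 1 to 3. Rabbits 1, 4 and 5 lay below all controls, and rabbits 2 and 3 lay among them. The means, 41.1 ± 10.8 CPM (SD, n = 5) and 52.4 ± 7.92 CPM (SD, n = 3), gave a log2 fold change of -0.35 (SE 0.22, adjusted p = 0.312 in edgeR).

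*TIE1* (gene 100350418), the partner receptor that modulates TEK, was at 17.6, 33.7, 39.4, 26.9 and 29.5 CPM in Perthes rabbits 1 to 5 and at 50.4, 40.2 and 28.0 CPM in controls 1 to 3. The groups overlapped. At a log2 fold change of -0.43 (SE 0.27, adjusted p = 0.314 in edgeR) it did not pass either, with means of 29.4 ± 8.12 CPM (SD, n = 5) and 39.5 ± 11.2 CPM (SD, n = 3).

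*ANGPT2* (gene 100353377), the angiopoietin that endothelial cells release when vessels are remodelled, was at 8.92, 7.30, 10.1, 19.2 and 9.39 CPM in Perthes rabbits 1 to 5 and at 3.86, 7.93 and 10.1 CPM in controls 1 to 3. Rabbit 4 stood above the rest, and the other 4 Perthes rabbits lay within the control range. The log2 fold change was 0.58 (SE 0.39, adjusted p = 0.336 in edgeR), from means of 11.0 ± 4.70 CPM (SD, n = 5) and 7.31 ± 3.19 CPM (SD, n = 3). It was 0.28 without rabbit 4.

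Of the surface proteins of capillaries and veins, *EMCN* (gene 103350743) encodes endomucin, a sialomucin that marks the endothelium of bone vessels. It was at 19.3, 14.2, 18.1, 14.8 and 14.6 CPM in Perthes rabbits 1 to 5 and at 6.68, 13.3 and 14.7 CPM in controls 1 to 3. Control 1 stood lowest, and the groups overlapped. Its log2 fold change was 0.49 (SE 0.26, adjusted p = 0.235 in edgeR), from means of 16.2 ± 2.31 CPM (SD, n = 5) and 11.6 ± 4.28 CPM (SD, n = 3).

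*PLVAP* (gene 100343789) encodes the protein of the diaphragms that close endothelial fenestrae and caveolae. It was at 58.6, 67.9, 83.8, 73.7 and 85.4 CPM in Perthes rabbits 1 to 5 and at 56.8, 64.1 and 56.4 CPM in controls 1 to 3. All but rabbit 1 lay above the controls. Its log2 fold change was 0.32 (SE 0.17, adjusted p = 0.216 in edgeR), from means of 73.9 ± 11.2 CPM (SD, n = 5) and 59.1 ± 4.33 CPM (SD, n = 3).

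*ENG* (gene 100357448) encodes endoglin, a co-receptor for BMP9 and TGF-beta ligands on endothelium that stromal cells and macrophages can also carry. It was at 104, 118, 122, 119 and 114 CPM in Perthes rabbits 1 to 5 and at 89.3, 89.7 and 86.0 CPM in controls 1 to 3. Every Perthes rabbit lay above every control, as in 11.2% of all genes tested. The means were 115 ± 7.14 CPM (SD, n = 5) and 88.3 ± 2.03 CPM (SD, n = 3), with a fitted fold of 1.31 and a 95% interval from 1.06 to 1.61. The log2 fold change was 0.38 (SE 0.13), with an unadjusted p of 0.0182 and an adjusted p of 0.0832 in edgeR, so the gene did not pass. It passed in DESeq2 with an adjusted p of 0.00580. With each rabbit left out in turn the log2 fold change stayed between 0.36 and 0.42 and the adjusted p between 0.0624 and 0.221 in edgeR.

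The sinusoid genes varied most. *STAB2* (gene 100355190) encodes stabilin 2, the endocytic receptor for hyaluronan of sinusoidal endothelium. It was at 18.6, 110, 61.4, 6.19 and 14.4 CPM in Perthes rabbits 1 to 5 and at 89.9, 134 and 71.8 CPM in controls 1 to 3. Rabbit 2 lay within the control range and the other 4 lay below it. The highest Perthes rabbit had 17.9 times the level of the lowest, and the highest control 1.87 times that of the lowest control. The means were 42.2 ± 43.7 CPM (SD, n = 5) and 98.6 ± 32.0 CPM (SD, n = 3). With these, the fitted log2 fold change was -1.22 (SE 0.78, adjusted p = 0.311 in edgeR), with a 95% interval from -2.98 to 0.54. Without rabbit 2 it was -1.97 with an adjusted p of 0.0785 in edgeR. Part of the deposited values of *STAB2* were not whole numbers, as estimates are when reads are shared with other genes.

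*CLEC4G* (gene 100338947) encodes a C-type lectin known from the sinusoidal endothelium of liver and lymph node. It was at 0.135, 1.80, 0.184, 0 and 0.102 CPM in Perthes rabbits 1 to 5 and at 16.0, 8.25 and 3.19 CPM in controls 1 to 3. In counts these were 4, 48, 5, 0 and 3 against 448, 234 and 96, and the count of 0 in rabbit 4 allows up to 0.109 CPM (3 counts, counting error only). All 5 Perthes rabbits lay below all 3 controls, as in 13.9% of all genes tested, and rabbit 2 lay nearest to them. The means were 0.444 ± 0.760 CPM (SD, n = 5) and 9.15 ± 6.45 CPM (SD, n = 3). The fitted level was 20.7-fold lower in the Perthes rabbits, with a 95% interval from 3.86-fold to 111-fold. The log2 fold change was -4.37 (SE 1.07, adjusted p = 0.0283 in edgeR). As it passed the filter through the controls alone, it is not tested, and the call is absent, where 10 counts are required in every sample.

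The call on *CLEC4G* depended on single rabbits although the direction did not. It was lost without Perthes rabbit 1, 3 or 5, with adjusted p of 0.0530, 0.0704 and 0.0674 in edgeR, and without control 1 or 2, with 0.113 and 0.0801. It was kept without Perthes rabbit 2, at a log2 fold change of -6.38 and an adjusted p of 0.00207, without rabbit 4, at 0.0295, and without control 3, at 0.0343. Over these 8 fits the log2 fold change ran from -6.38 to -3.69.

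Both *STAB2* and *CLEC4G* were highest in rabbit 2 among the Perthes rabbits, and the 0 to 5 counts of *CLEC4G* in the other 4 are too few to order them. In the controls the order differed, since *STAB2* was highest in control 2 and *CLEC4G* in control 1. The red-cell marker list, 9 genes summed, was at 37.7, 2578, 447, 501 and 89.4 CPM in Perthes rabbits 1 to 5 and at 6304, 6198 and 5363 CPM in controls 1 to 3. The list of dividing cells, 8 genes summed, was at 199, 572, 209, 305 and 211 CPM and at 1360, 1299 and 1300 CPM. Rabbit 2 was the highest Perthes rabbit in both sinusoid genes and both lists. Rabbit 4 was the lowest in *STAB2* and the second highest in both lists. In the neutrophil list rabbit 4 was the highest Perthes rabbit, at 2470 CPM, and rabbit 2 was next, at 2424 CPM. In the megakaryocyte and platelet list rabbit 2 was the highest, at 594 CPM. Rabbit 2 also lay nearest to the controls on the first principal component. Whether the level of blood-forming cells had a part in the sinusoid values was not tested.

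**Figure D3:**
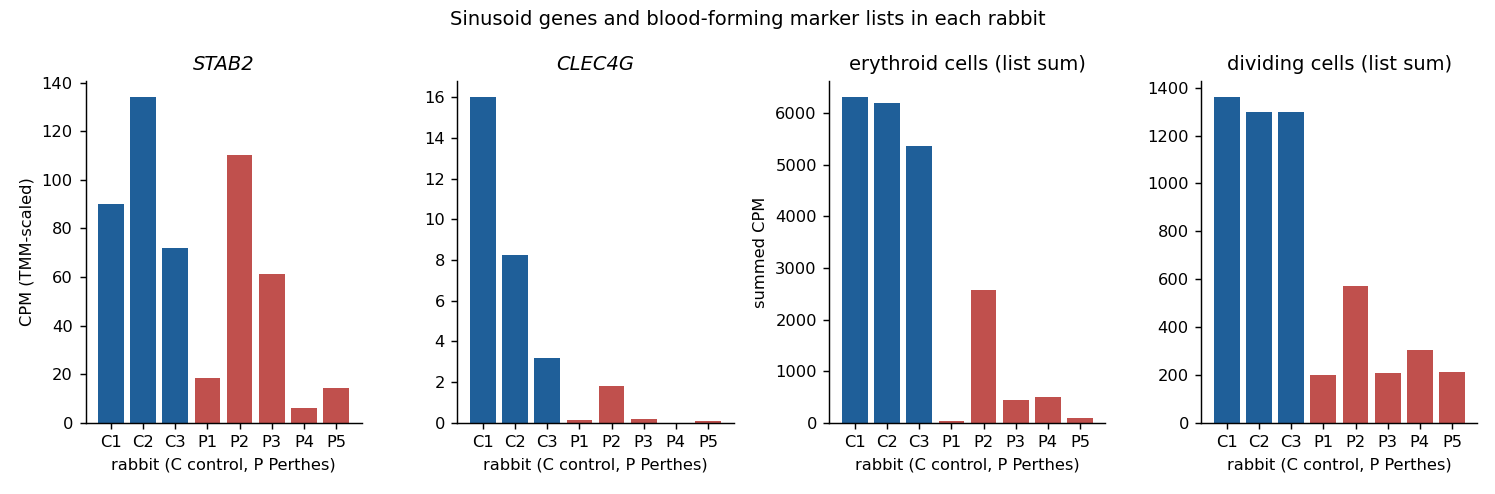
*STAB2* and *CLEC4G* in each rabbit (CPM, TMM-scaled) beside the summed CPM of the lists of red-cell and dividing-cell markers, with controls C1 to C3 in blue and Perthes rabbits P1 to P5 in red on linear axes from 0. P2 stands highest of the Perthes rabbits in all 4 panels, at 110, 1.80, 2578 and 572 CPM.

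The spread between rabbits of one group separated the members as well. The biological coefficient of variation, which is that spread beyond counting noise, was 0.189 for *ENG*, 0.207 for *PLVAP* and 0.239 for *CDH5*, at the 2.45th, 10.3th and 27.4th percentile of all genes tested. It was 0.252 for *TEK*, 0.266 for *PECAM1*, 0.280 for *EMCN*, 0.292 for *TIE1* and 0.387 for *ANGPT2*. The sinusoid genes were at the other end, with 0.732 for *STAB2* (96.2th percentile) and 1.06 for *CLEC4G* (99.1th percentile). The 95% intervals of the log2 fold changes followed this order at its ends, from 0.08 to 0.69 for *ENG* and from -6.79 to -1.95 for *CLEC4G*.

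To compare members within the same libraries, 9 ratios were formed in each rabbit as log2 of CPM + 0.5 in both terms, and groups were compared by an exact two-sided permutation test, whose smallest p is 0.0357. None of the 9 passed after adjustment over the 9. A ratio at that smallest p could not pass unless most of the others reached it too. Of the 9, 1 had an unadjusted p under 0.05. This was *CLEC4G* to *CDH5*, at a mean log2 ratio of -6.54 ± 1.01 (SD, n = 5) in the Perthes rabbits and -2.77 ± 1.38 (SD, n = 3) in the controls. The difference was -3.77, with no overlap between the groups (exact p = 0.0357, the smallest possible, adjusted 0.193). The size rests on the added constant, since *CLEC4G* was below 0.5 CPM in 4 Perthes rabbits: with 0.1 the difference was -5.06 and with 2 it was -2.46.

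*STAB2* to *CDH5* differed by -2.26 (exact permutation p = 0.0714, adjusted 0.193), and rabbit 2, at 0.73, lay among the controls, which ran from 0.19 to 1.11. *CLEC4G* to *STAB2* differed by -1.51 (exact permutation p = 0.107, adjusted 0.193), or by -2.77 with a constant of 0.1 and -0.30 with 2. *PECAM1* to *CDH5* differed by -0.67 (exact permutation p = 0.0714, adjusted 0.193), with a range of 0.17 to 0.53 in the Perthes rabbits and of 0.42 to 1.89 in the controls. The ratio of *ANGPT2* to its receptor *TEK* differed by 0.94 (exact permutation p = 0.107, adjusted 0.193). The ratios of *ENG*, *PLVAP* and *EMCN* to *CDH5* and of *TIE1* to *TEK* differed by -0.10 to 0.12, with an exact permutation p of 0.643 or more.

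**Figure D4:**
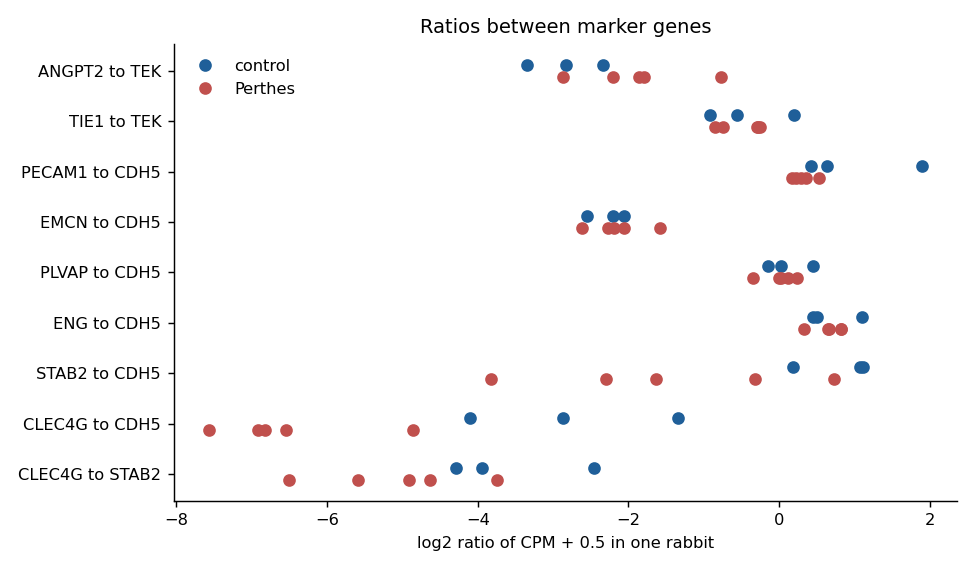
The 9 ratios between marker genes in each rabbit, as log2 of the ratio of CPM + 0.5, with blue points for controls and red points for Perthes rabbits. In *CLEC4G* to *CDH5* the groups do not overlap, with the Perthes rabbits from -7.56 to -4.87 and the controls from -4.10 to -1.34.

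The 10 lists of other vascular genes held 102 tested genes, of which 10 rose and 11 fell in edgeR, with a median log2 fold change of 0.39. Over all genes tested 6.21% rose and 8.86% fell. Without control 2 none of the 102 was called, in a fit that called 0 of 15594 genes (3722 at an unadjusted p under 0.05), and without control 1 1 rose and 1 fell. Without Perthes rabbit 2, 16 rose and 12 fell, without rabbit 3, 5 rose and 8 fell, and without rabbit 4, 14 rose and 11 fell. Without rabbit 5, 6 rose and 5 fell. DESeq2 called 24 higher and 13 lower. Of the genes named below, *COL3A1*, *ERG*, *RELN*, *STAB1* and *THY1* lost their call without rabbit 2, with adjusted p of 0.0503 to 0.0656 in edgeR. Without rabbit 4 the calls on *COL3A1*, *EPOR*, *RELN* and *S100A9* were lost, with adjusted p of 0.0508 to 0.0672.

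General endothelial markers were counted next. Of 24 tested genes of endothelial identity, 0 rose, 1 fell and 23 did not pass, beside 6.21% and 8.86% of all genes that rose and fell. Of the 24, 17 had a log2 fold change above 0 and 7 below, with a median of 0.30. Their summed level was 565 to 855 CPM in the Perthes rabbits and 527 to 682 CPM in the controls, and the groups overlapped. *KDR*, the main VEGF receptor, had a log2 fold change of -0.31 (adjusted p = 0.336 in edgeR). *VWF*, the clotting protein that endothelium and platelets store, was at 49.7, 65.5, 95.7, 30.3 and 16.7 CPM in Perthes rabbits 1 to 5 and at 16.4 to 18.1 CPM in the controls, with a log2 fold change of 1.59 (adjusted p = 0.0606 in edgeR). It passed without rabbit 4 (adjusted p = 0.0468), without rabbit 5 (0.0384) and in DESeq2 (0.00610). *MMRN1*, a multimerin of platelets and endothelium, fell from 9.91 to 13.0 CPM in the controls to 0.340 to 3.67 CPM, with a log2 fold change of -3.05 (adjusted p = 0.0169 in edgeR), or -3.87 without rabbit 2.

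In the angiopoietin and Tie list 1 of 7 tested genes rose and 0 fell. It was *SVEP1*, an extracellular matrix protein, at 443 to 689 CPM in the Perthes rabbits and 156 to 289 CPM in the controls (log2 fold change 1.24, SE 0.25, adjusted p = 0.0171 in edgeR). *ANGPT1*, the ligand that activates TEK, had a log2 fold change of 0.34 (adjusted p = 0.463 in edgeR). *PTPRB*, the phosphatase that restrains TEK, had one of -0.15 (adjusted p = 0.710 in edgeR). In the endoglin and BMP9 list, 1 of 10 tested genes rose and 0 fell. *ACVRL1*, the type I receptor that pairs with endoglin, was at 27.3 to 43.8 CPM in the Perthes rabbits and at 18.9 to 23.7 CPM in the controls (log2 fold change 0.85, SE 0.19, adjusted p = 0.0224 in edgeR). The genes of the circulating ligands, *GDF2* and *BMP10*, were too low to be tested.

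The other genes of the sinusoid and scavenger list went both ways. Of 9 tested, 3 rose and 1 fell, and 5 had a log2 fold change above 0 and 4 below, with a median log2 fold change of 0.91. *OIT3*, known from liver sinusoids, was at 0.509 to 4.99 CPM in the Perthes rabbits and at 0.212 to 0.536 CPM in the controls, with a log2 fold change of 2.86 (adjusted p = 0.0331 in edgeR). Its counts were 55, 45, 136, 14 and 86 in Perthes rabbits 1 to 5 and 15, 6 and 7 in controls 1 to 3. *OIT3* passed the low-count filter through the Perthes libraries. Where 10 counts are required in every sample it is not tested. *MRC1*, the mannose receptor, was at 406, 144, 210, 56.4 and 313 CPM in Perthes rabbits 1 to 5 and at 53.7 to 64.0 CPM in the controls (log2 fold change 1.96, adjusted p = 0.0454 in edgeR). *STAB1*, the sister receptor of stabilin 2, was at 567, 501, 574, 154 and 651 CPM and at 115 to 216 CPM (log2 fold change 1.53, adjusted p = 0.049961 in edgeR, just under the threshold). *F8*, coagulation factor VIII, which sinusoidal endothelium makes, fell from 14.0 to 20.1 CPM to 2.52 to 8.54 CPM (log2 fold change -1.89, adjusted p = 0.0163 in edgeR).

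*MRC1* and *STAB1* are carried by macrophages too. *CD68*, a lysosomal protein of macrophages, rose with a log2 fold change of 2.02 (adjusted p = 0.0165 in edgeR), and *CSF1R*, their growth factor receptor, rose with one of 1.07 (adjusted p = 0.0326 in edgeR). Perthes rabbit 4 was the lowest Perthes rabbit in *MRC1*, *STAB1*, *CD68* and *CSF1R*, at 56.4, 154, 113 and 186 CPM. In the macrophage list 2 of 7 tested genes rose and 1 fell, and the summed level was 449 to 1311 CPM in the Perthes rabbits and 493 to 696 CPM in the controls. The gene that fell is listed as *C1QC*, with a log2 fold change of -2.09 (adjusted p = 0.0133 in edgeR), and its identifier belongs to *C1QA* in RefSeq. The part of macrophages in *MRC1* and *STAB1* was not tested.

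Of 15 endothelial transcription factors, 5 fell and 0 rose. *TAL1* was at 24.2, 122, 43.9, 29.0 and 22.1 CPM in Perthes rabbits 1 to 5 and at 205 to 299 CPM in the controls (log2 fold change -2.45, adjusted p = 0.0210 in edgeR, -3.14 without rabbit 2), and *GATA2* had a log2 fold change of -2.34 (adjusted p = 0.0153 in edgeR). Both also act in blood-forming cells. *HHEX* had a log2 fold change of -1.13 and *FLI1* of -1.01, with adjusted p of 0.0263 and 0.0148 in edgeR. *ERG*, an ETS factor that keeps endothelial identity, was at 15.1 to 21.3 CPM in the Perthes rabbits and at 25.3 to 29.4 CPM in the controls, a log2 fold change of -0.59 (SE 0.16, adjusted p = 0.0359 in edgeR). The median of the 15 was -0.02. Whether the 5 that fell did so in endothelium or in blood-forming cells was not tested.

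Of 6 tested caveolar genes, 1 rose and 1 fell. *CAVIN3* was at 32.5 to 58.9 CPM in the Perthes rabbits and at 22.4 to 25.1 CPM in the controls, with a log2 fold change of 1.05 (adjusted p = 0.0152 in edgeR). *CAVIN2*, which platelets also hold, was at 4.19, 19.8, 7.42, 2.73 and 2.14 CPM in Perthes rabbits 1 to 5 and at 27.8 to 46.8 CPM in the controls (log2 fold change -2.48, adjusted p = 0.0357 in edgeR, -3.29 without rabbit 2). The megakaryocyte and platelet list, 7 genes summed, was at 138, 594, 311, 290 and 340 CPM in Perthes rabbits 1 to 5 and at 967, 689 and 577 CPM in controls 1 to 3. Most of the Perthes sums was *ITGB3*, at 131, 483, 277, 260 and 325 CPM, against 475, 421 and 390 CPM in controls 1 to 3. All 7 genes had a log2 fold change below 0, from -3.64 to -0.54, and that of *ITGB3* was the smallest in size. The part of platelets and their precursors in *MMRN1* and *CAVIN2* was not tested.

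Of 11 arterial and Notch genes, 0 rose and 1 fell. This was *BMX*, a kinase of arterial endothelium and of blood cells, at 0.946 to 6.15 CPM in the Perthes rabbits and 12.2 to 41.1 CPM in the controls (log2 fold change -3.03, adjusted p = 0.0184 in edgeR). Without control 1 it was -2.39, with an adjusted p of 0.0833. *CXCL12*, a chemokine of marrow stroma and arterial endothelium, was at 88.9, 467, 178, 96.1 and 72.6 CPM in Perthes rabbits 1 to 5 and at 462, 601 and 359 CPM in controls 1 to 3. Rabbit 2 lay within the control range and the other 4 below it, and the log2 fold change was -1.39 (adjusted p = 0.136 in edgeR). Without rabbit 2 it was -2.12, with an adjusted p of 0.00535.

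Of 7 tip cell and sprouting genes, 1 rose and 1 fell. *APLN*, a peptide that tip cells secrete, was at 10.2 to 32.9 CPM in the Perthes rabbits, highest in rabbit 4, and at 3.18 to 6.95 CPM in the controls (log2 fold change 1.79, adjusted p = 0.0294 in edgeR). The deposited annotation lists this entry as a long non-coding RNA and not as an mRNA. *CXCR4*, the CXCL12 receptor of tip cells and of many blood cells, had a log2 fold change of -1.40 (adjusted p = 0.0136 in edgeR). Of 6 lymphatic genes 0 rose and 1 fell. This was *RELN*, at 15.7 to 46.4 CPM in the Perthes rabbits and 51.3 to 61.5 CPM in the controls (log2 fold change -1.19, adjusted p = 0.0440 in edgeR).

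Genes of the cells that wrap the vessels were called in the upward direction. Of 10 pericyte and mural genes 3 rose and 0 fell, and all 10 had a log2 fold change above 0, with a median of 0.72. *ACTA2*, smooth muscle actin, which myofibroblasts also make, was at 156, 62.9, 180, 41.9 and 198 CPM in Perthes rabbits 1 to 5 and at 5.61, 12.5 and 14.2 CPM in controls 1 to 3 (log2 fold change 3.56, SE 0.62, adjusted p = 0.0133 in edgeR). *ABCC9* and *KCNJ8*, the 2 subunits of a potassium channel of pericytes, had log2 fold changes of 1.80 and 1.31, with adjusted p of 0.0118 and 0.0150 in edgeR. Of 8 tested fibroblast genes 3 rose and 5 did not pass. Those that rose were *COL3A1* (log2 fold change 2.34, adjusted p = 0.0474 in edgeR), *POSTN* (1.68, 0.0341) and *THY1* (1.35, 0.0372). *COL3A1* was at 780, 1634 and 6747 CPM in controls 1 to 3, and its log2 fold change was 3.68 without control 3 and 1.89 without control 1, with an adjusted p of up to 0.159 when 1 rabbit was left out. The summed level of the list was 14445 to 26042 CPM in the Perthes rabbits and 1492 to 8856 CPM in the controls. The part of fibroblasts in *ACTA2* was not tested.

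**Figure D5:**
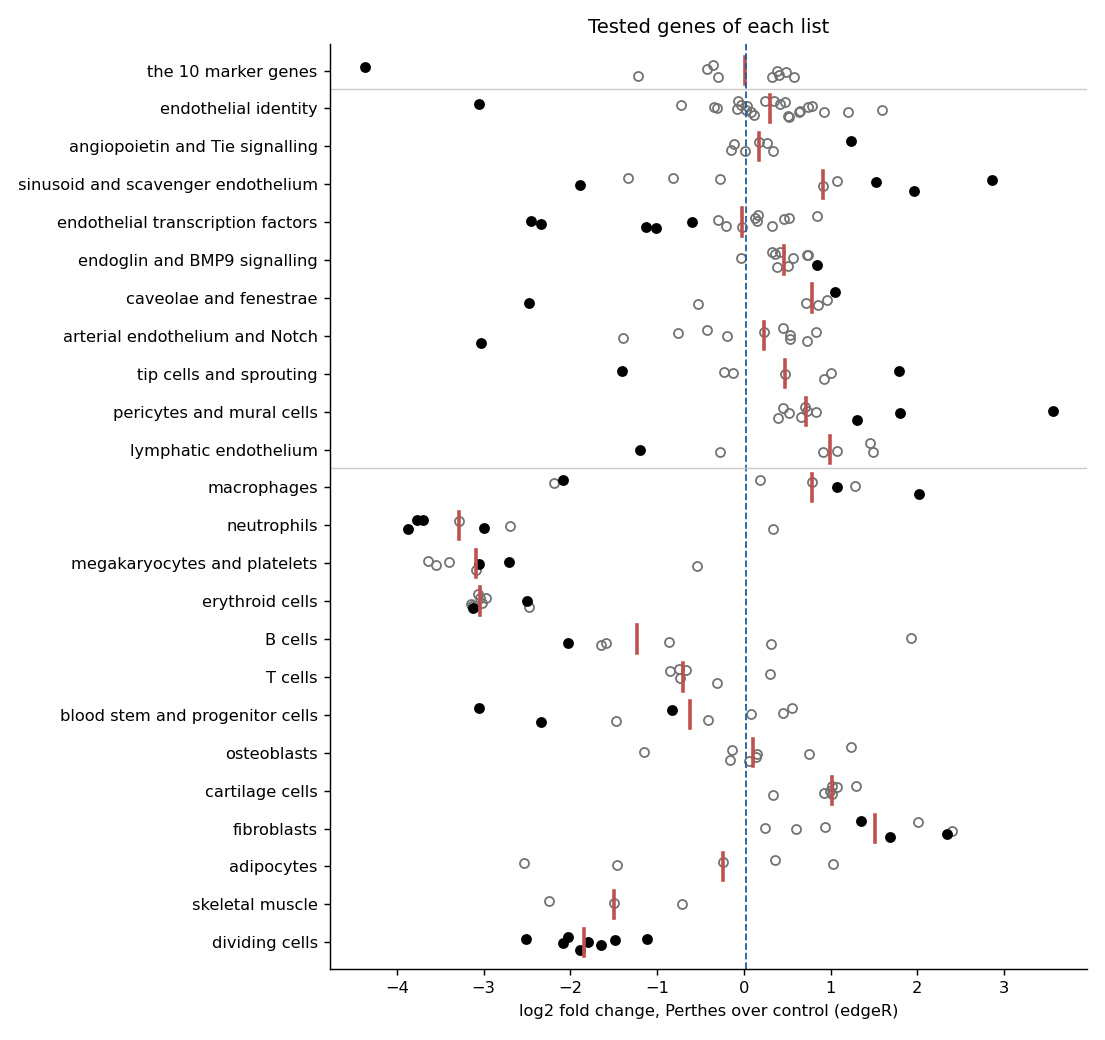
Fitted log2 fold change, Perthes over control, of every tested gene of the 10 marker genes (top row), of the 10 vascular lists and of the 13 lists of other cells. Filled points have an adjusted p under 0.05 in edgeR, red bars give the median of a list, the dashed line is the median of all genes at 0.02, and the vertical scatter within a row carries no value. The endothelial identity list is centred at 0.30, and the red-cell, neutrophil and megakaryocyte lists at -3.04, -3.28 and -3.09.

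Marker genes of other cells of the femoral head were counted in the same way. Of 88 tested marker genes of 13 other cell types or states, 5 rose and 20 fell, with a median of -0.79, beside 6.21% and 8.86% of all genes. The number that fell was 36 without Perthes rabbit 2, 8 without rabbit 3 or rabbit 5, 2 without control 1, 13 without control 3 and 0 without control 2, and the number that rose lay between 0 and 7. All 8 genes of dividing cells fell, *MKI67* by 2.51 and *CDK1* by 1.12 on the log2 scale, with adjusted p of 0.0133 and 0.0257 in edgeR. Of the 7 neutrophil genes 4 fell, namely *LCN2*, *S100A8*, *S100A9* and *CXCR2*, and the list sum was 505 to 2470 CPM in the Perthes rabbits and 5542 to 14059 CPM in the controls. *LCN2* had a log2 fold change of -3.87 (adjusted p = 0.0385 in edgeR). *CXCR2* had one of -2.99 (adjusted p = 0.0370 in edgeR), or -3.67 without rabbit 4.

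Of 9 red-cell genes 2 fell, among them *EPOR*, the erythropoietin receptor (log2 fold change -2.50, or -3.33 without rabbit 2), with the log2 fold changes of all 9 between -3.15 and -2.48. Of 7 megakaryocyte and platelet genes 2 fell, among them *ITGA2B*, an integrin of platelets (log2 fold change -2.71, adjusted p = 0.0274 in edgeR, -3.39 without rabbit 2). *ITGB3*, which endothelial cells and osteoclasts also use, had one of -0.54 (adjusted p = 0.318 in edgeR). Of 8 blood stem and progenitor genes 3 fell, among them *GATA2* and *MEIS1*, the latter by 0.83 on the log2 scale (adjusted p = 0.0218 in edgeR).

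Of 6 B cell genes 1 fell, *MS4A1*, with a log2 fold change of -2.03 (adjusted p = 0.049985 in edgeR, just under the threshold), and 0 of 6 T cell genes passed in either direction, *LCK* being at -0.75 (adjusted p = 0.175 in edgeR). None of the tested genes of osteoblasts (8), cartilage cells (7), adipocytes (5) or skeletal muscle (3) was called. The genes with the highest level in these lists were *COL1A1* at a log2 fold change of 0.15, *COL2A1* at 0.34, *LPL* at 0.36 and *TTN* at -1.49, with adjusted p of 0.842, 0.671, 0.773 and 0.191 in edgeR. Summed levels of bone and cartilage markers overlapped between the groups, at 46308 to 145643 CPM against 73909 to 92442 CPM for osteoblasts and at 34493 to 140124 CPM against 45888 to 65096 CPM for cartilage cells. Nearly all of the osteoblast sum was *COL1A1*, at 44666 to 143897 CPM against 72816 to 90894 CPM. The log2 fold changes of the 8 osteoblast genes ran from -1.15 to 1.23. How far a different mix of tissue between the dissected heads moved the marker genes was not tested.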

How the data were processed

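Total RNA libraries of the femoral heads of 5 Perthes and 3 control rabbits were used. The small RNA libraries were not used here. The third control has the number 3 in its sample code, which was followed, and another in its title. The authors depleted ribosomal RNA, made directional libraries and sequenced 150 bp pairs. Per the submitters' processing notes the tools were HISAT2 2.0.4, RSEM 1.1.17 and HTSeq 1.99.2. The deposited values are the authors' expected counts for each gene without normalization, of which 10.0% to 10.7% per library are not whole. Another 8 columns repeat those used and were left out.

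The expected counts were rounded. Scaling by TMM, filterByExpr by group and the quasi-likelihood test were run in edgeR 4.0.16 (R 4.3.3), and p-values of 15305 genes were adjusted after Benjamini and Hochberg. The standard error is the log2 fold change divided by the square root of F. Ratios between members used exact permutation tests (scipy 1.17.1, Python 3.11.15). At these depths precision was limited by the spread between rabbits, and for *CLEC4G* also by counting.

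The 10 genes and the 23 lists (10 vascular, 13 of other cells) were chosen with earlier results of these data known. Of 219 list genes, 197 were found by symbol or, for 3, by RefSeq identifier. All 10 members were described. From a vascular list the 2 called genes with the largest change in each direction were named, from another list 1, and with none called the gene of highest mean level. *ANGPT1*, *PTPRB*, *ACVRL1*, *VWF* and *KDR* were named whatever their values. *ERG*, *FLI1*, *HHEX*, *STAB1*, *KCNJ8*, *CXCL12*, *CDK1*, *CSF1R*, *ITGA2B*, *ITGB3*, *MEIS1*, *THY1*, *POSTN*, *S100A8*, *S100A9*, *CXCR2* and *EPOR* were chosen after their values were seen. A few genes that the rule would name are not reported here. For 9 of the 10 members the identifier carries the same symbol in RefSeq (assembly mOryCun1.1, another build, so no coordinates are given), and that of *PLVAP* was not matched. A planned comparison of member promoters was not made.

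Alternatives were DESeq2 1.42.0, DESeq2's size factors or library totals as scaling, no filter on low counts or one of 10 counts in every sample, the replicate number as a block, each rabbit left out, the study's thresholds (log2 fold change beyond 2, adjusted p under 1e-05), and constants of 0.1 and 2 in the ratios. Those thresholds were put on the edgeR fit, whereas the study put them on DESeq2.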

Additional observations from a re-analysis of the deposited data

Results flagged for a closer look

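Of 90 values checked within the 5 Perthes rabbits, 15 had a highest or lowest rabbit far from the other 4 (Dixon's 95% value). Chance gives about 1 in 20 for independent, normally spread values. Here list sums hold some of the named genes, and some genes were chosen after their values were seen. The 15 therefore cannot be read as an excess over that share. Perthes rabbit 2 was the far one, on the high side and so toward the controls, in *CLEC4G* (1.80 CPM, next 0.184), *MMRN1* (3.67), *TAL1* (122), *CXCL12* (467), *ITGA2B* (62.0), *EPOR* (28.9), *MKI67* (315) and *CDK1* (29.7), and in the sums of the red-cell list (2578 CPM) and the dividing-cell list (572 CPM). Perthes rabbit 4 was far in *ANGPT2* (19.2 CPM, next 10.1) and the caveolar sum (396 CPM, next 302), both high, and in the sum of the sinusoid and scavenger list (298 CPM, next 868), low. Perthes rabbit 1 was far and low in *KDR* (35.1 CPM, next 54.3), and Perthes rabbit 5 far and high in *KCNJ8* (20.5 CPM, next 14.2).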

How the results depend on the processing

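The correlations of same-numbered rabbits' deviations were -0.317, 0.161 and -0.238, and the mean of 12 other pairs was 0.03. So few values cannot decide whether the replicate numbers pair the rabbits. With the replicate block 0 marker genes were called in either direction (*CLEC4G* at -4.13, adjusted p = 0.143), and 0 of the vascular and 0 of the other-cell genes, in a fit that called 0 of 15305 genes (3152 at an unadjusted p under 0.05). With DESeq2 1 marker gene was higher, as were 24 vascular and 9 other-cell genes, and library totals alone gave 3 other-cell genes higher and shifted the median by -0.09. With at least 10 counts in every sample *CLEC4G* was not tested and 0 marker genes were lower. The study's thresholds, put here on edgeR's adjusted p, left 0 marker genes, as they did of all 15305 genes. The study put them on DESeq2 and reported genes past them, so this 0 does not bear on its count. Leaving out each rabbit gave 0 marker genes higher and 0 to 1 lower, 0 to 16 vascular genes higher and 0 to 12 lower, and 0 to 7 other-cell genes higher and 0 to 36 lower. Directions turned when a rabbit was left out for *PECAM1* (-0.47 to 0.010, above 0 without control 1), *COL1A1* (-0.070 to 0.33, below 0 without Perthes rabbit 2) and *COL2A1* (-0.044 to 0.52, below 0 without Perthes rabbit 4), and *COL2A1* was at -0.18 with the block. Among the ratios they turned for *TIE1* to *TEK* (-0.30 to 0.26, above 0 without Perthes rabbit 1, Perthes rabbit 2 or control 1), *EMCN* to *CDH5* (-0.017 to 0.24, below 0 without Perthes rabbit 1 or control 1), *ENG* to *CDH5* (-0.14 to 0.18, above 0 without Perthes rabbit 4 or control 1) and *PLVAP* to *CDH5* (-0.23 to 0.072, above 0 without control 1). The causes were not tested. Of 139 values of the 10 marker genes under the alternatives, 131 kept direction and call, 9 of these genes having no call to lose. Of 671 values of the other named genes 473 kept both and 191 lost the call. None of the 9 ratios passed in any alternative. With a rabbit left out none could, since the smallest exact permutation p is then above 0.05, so those fits decide nothing about the ratios. Depth limits *CLEC4G* in 4 Perthes rabbits, with 5 counts or fewer.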
